A study of Mus musculus with 16 samples.

Results

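The genes described here build and regulate the lysosome: the subunits of its proton pump, its enzymes for sugars, lipids and proteins, its membrane proteins, the transcription factor Tfeb and the secreted protein progranulin. They were chosen as all gene symbols beginning with Atp6v or Atp6ap plus 25 named genes, without cathepsins, and kept where they reached at least 1 FPKM (the fragments of a gene relative to its transcript's length and to the library's size) in at least 4 of 16 libraries. Of 46 genes matched in a table of 13982, 43 were kept: 18 pump genes and the 25 named genes. The 3 pump genes that were not kept, Atp6v0e2, Atp6v1c2 and Atp6v1g3, did not pass 0.58 FPKM in any library. Atp6v0d2 passed the filter only through libraries from mice with occlusion, and was at 0 to 0.03 FPKM in the Sham libraries. Gla also needed those libraries to pass, since Sham replicate 3 was its only Sham library at 1 FPKM or more.

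The lysosome is the acidic compartment in which phagocytes, microglia among them, digest what they take up. Its acid comes from the V-ATPase, a rotary pump in which the cytoplasmic V1 sector hydrolyses ATP and the membrane-embedded V0 sector carries protons. TFEB, the protein of Tfeb, is a transcription factor of the MiT/TFE family that is released from the lysosomal surface when mTORC1 signalling falls, and it binds E-box sequences in the promoters of many lysosomal genes.

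The cells were sorted with antibodies to CD45 and CD11b from the infarct cortex of C57BL/6 mice and are labelled as microglia. The 16 libraries fall into 4 groups of 4: Sham, MCAO (middle cerebral artery occlusion, a model of ischaemic stroke), and, with exosomes added to occlusion, MCAO+Ctrl-exos and MCAO+AS-exos. In these last 2 groups 150 μg of exosomes, small vesicles from plasma, were given by tail vein on the day of surgery and each 3 days afterwards. The plasma donors were ApoE knockout mice on a western diet, fed for 12 weeks in the series' atherosclerosis model, or on a normal diet, and the labels do not pair the diets with the names Ctrl-exos and AS-exos. Age, sex and the time from surgery to sorting are not given in the sources used here, nor whether each library came from a separate mouse, so p-values measure only the spread between these libraries.

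Summed FPKM ran from 758283 to 983648 per library, with 8813 to 10003 genes at 1 FPKM or more. The files hold no counts, so depth is unknown. The label microglia was checked against marker lists. Summed FPKM of 10 homeostatic microglia markers was 20890 to 22855 in the Sham libraries and 981 to 1800.1 in the 12 libraries with occlusion, where P2ry12 averaged 28.6 to 61.2 FPKM per group against 4214 FPKM in Sham. Summed FPKM of 10 monocyte markers was 215 to 613 in Sham and 8645 to 23305 with occlusion, that of 8 border macrophage markers was 2.84 to 60.5 and 1877 to 5650, and that of 9 neutrophil markers was 76.7 to 144 and 1701 to 9898. S100a8 and S100a9 made up most of the neutrophil list in the group means with occlusion. Of the 9 neutrophil markers only Csf3r had lower means with occlusion, at 60.4 to 76.2 FPKM per group against 94.4 FPKM in Sham. Every list above had members at 1 FPKM or more in all libraries of each group, and among the defining markers Ly6g was at 0 in all Sham and MCAO libraries and Retnlg in all Sham libraries. In these bulk samples fewer cells of a type and less RNA per cell cannot be told apart, and the part of these marker changes in the results below was not tested.

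To show what TFEB's recognition letters look like at these genes, promoters were read from RefSeq (build GRCm38.p6, which is not the build named for the deposited values, GRCm39.p6). A promoter entry was found for 35 of the 43 genes, and the 250 bases before the start were searched for CACGTG, for TCACGTGA and for the full palindrome of 10 bases known as the CLEAR element. Each motif reads the same on both strands, and the longer ones contain the shorter. CACGTG was present in 9 of 35 members (25.7%), in 10.2% of the 8755 tested genes with an entry and in 6.02% of all 32851 promoters. A gene was counted where any of its promoter entries matched, while the 32851 promoters were counted singly, so the 6.02% has another unit. TCACGTGA was present in 3 of 35 members (8.57%), which were Atp6v1a, Gla and Mcoln1, and in 1.89% of the tested genes. The CLEAR palindrome was in none of the 35 and in 0.640% of the tested genes. The 6 windows below are examples from pump, enzyme and membrane genes, and their matches range from 1 in Gaa and Atp6v1a to 4 in Lamp1. Capitals mark CACGTG, and each window is written 5′ to 3′ on the strand of its gene, with 20 bases before the first match and up to 20 after the last, fewer where the gene's start is nearer.
Gla, chrX:134601174-134601252, minus strand: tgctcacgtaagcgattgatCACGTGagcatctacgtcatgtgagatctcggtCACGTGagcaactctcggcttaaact
Atp6v1a, chr16:44139365-44139410, minus strand: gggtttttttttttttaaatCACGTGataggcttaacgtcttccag
Atp6v0b, chr4:117887330-117887385, minus strand: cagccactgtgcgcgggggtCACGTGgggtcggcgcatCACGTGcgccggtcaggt
Gaa, chr11:119267803-119267848, plus strand: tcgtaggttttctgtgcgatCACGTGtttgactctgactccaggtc
Lamp1, chr8:13159080-13159160, plus strand: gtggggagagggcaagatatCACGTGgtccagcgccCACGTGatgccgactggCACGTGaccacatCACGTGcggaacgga
Mcoln1, chr8:3500428-3500499, plus strand: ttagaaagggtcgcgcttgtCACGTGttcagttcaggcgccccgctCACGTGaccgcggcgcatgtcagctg
The other members with CACGTG in these 250 bases were Glb1, Naglu and Lgmn. The matches are descriptions of the sequence and say nothing of binding in these cells.

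Together the 43 genes made up 1.12 to 1.55% of all FPKM in the Sham libraries, 1.81 to 2.08% in the MCAO libraries, 1.66 to 2.22% in the MCAO+Ctrl-exos libraries and 1.94 to 2.55% in the MCAO+AS-exos libraries. The 18 pump genes alone took 0.530 to 0.613% of FPKM in Sham and 0.761 to 0.912% in the 12 later libraries, so that no Sham library reached the others. Of this pump FPKM, Atp6v0c alone made up 13.2 to 24.6% in Sham and 33.8 to 41.1% in the 12 later libraries. In Sham, where FPKM compares levels per transcript length, the protease gene Lgmn had the highest mean of the 43 (1917 ± 469 FPKM, SD, n = 4). It was followed by the proteolipid genes Atp6v0c (872 ± 317) and Atp6v0b (855 ± 82.4), Laptm5 (825 ± 377) and Cd68 (775 ± 231), 4 means that did not differ beyond their spread. At the other end stood Gla (2.07 ± 3.56), Atp6v1g2 (3.07 ± 4.06), Tfeb (3.19 ± 2.11) and Atp6v0d2. Sham replicate 1 was the lowest Sham library for 25 of the 43 genes and Sham replicate 4 the highest for 23.

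**Figure D1:**
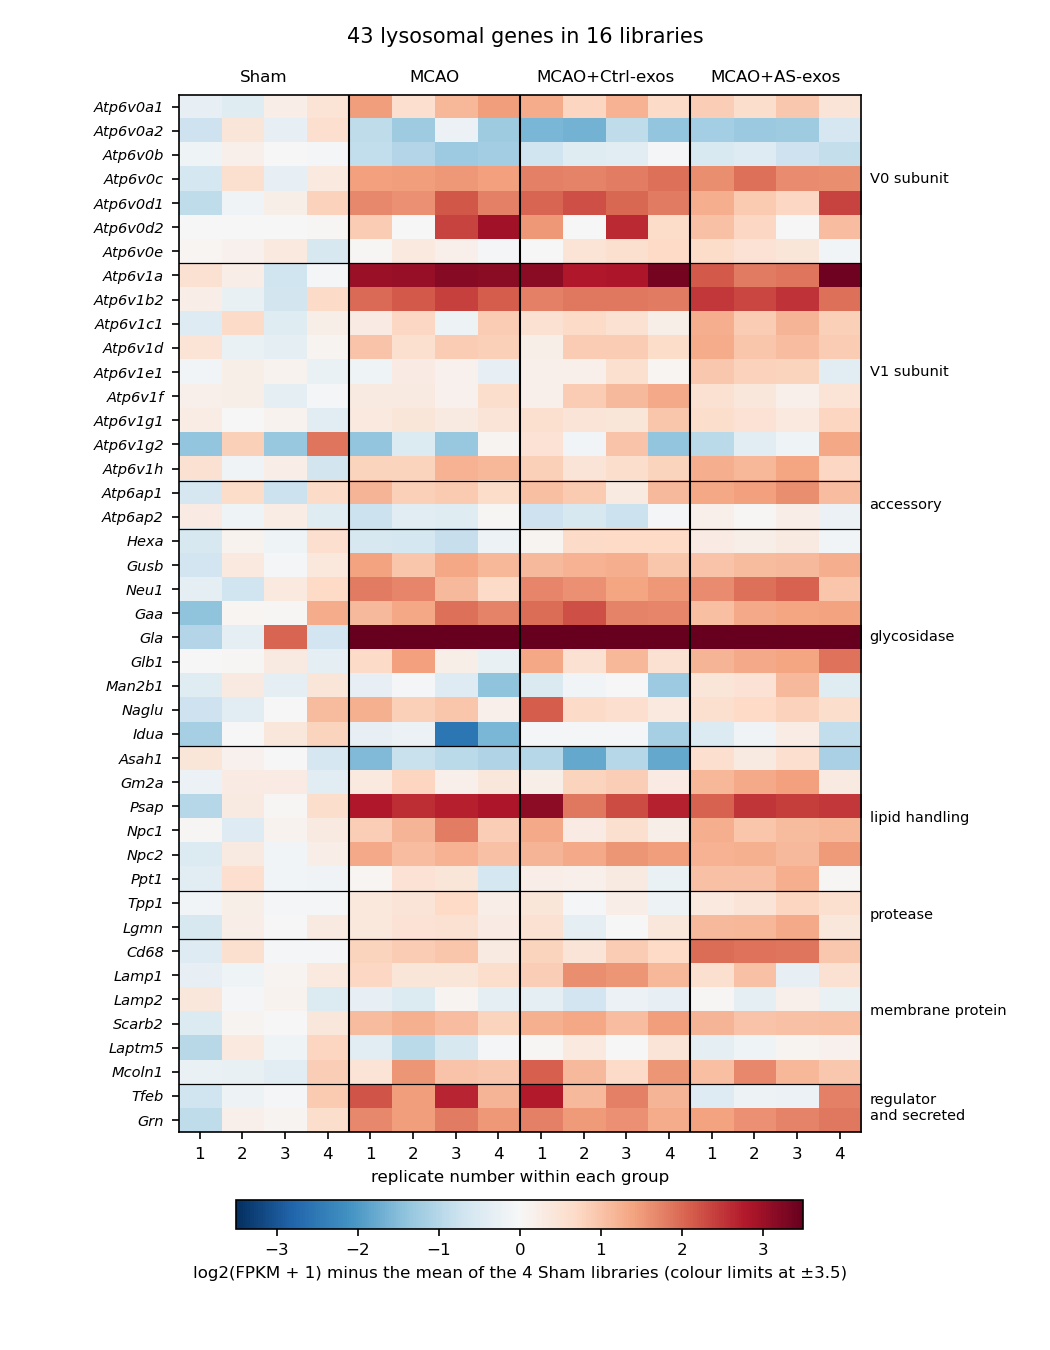
Each of the 43 genes (rows, ordered by role) in each of the 16 libraries (columns), coloured by log2(FPKM + 1) minus the mean of the 4 Sham libraries. Gla, Psap, Atp6v1a and Atp6v1b2 are above Sham in all 12 later libraries. Atp6v0b is below the Sham mean there, though its MCAO+Ctrl-exos replicate 4 lies within the range of the Sham libraries. MCAO+AS-exos replicate 4 differs from the other 3 of its group for Tfeb, Atp6v1a, Cd68 and Asah1. Gla lies beyond the colour limit of 3.5.

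The comparison of MCAO with Sham asks how occlusion changed these genes in the sorted cells. Of the 43 genes 21 rose (20 of 42 without Atp6v0d2, which had been kept only through libraries with occlusion), 2 fell and 20 did not pass an adjusted p of 0.05 (limma on log2(FPKM + 1), Benjamini-Hochberg over 10846 genes). Gla also needed libraries with occlusion to be kept, and is still counted among the genes that rose. Over all tested genes 39.2% passed, 24.5% higher and 14.8% lower. The members had a median of 0.74 on the log2 scale, and all tested genes a median of 0.25. For 20 of the 43 genes the values of the MCAO and Sham libraries did not overlap, against 33.8% of all tested genes. With quantile normalization, which moved the median of all genes to -0.03, the median of the members was 0.37 and the split was 17 higher and 7 lower, where 19.2% of all tested genes were higher and 2164 of 10846 lower. After removal of trends with transcript length and GC content it was 23 higher and 6 lower, where 26.5% of all genes in that fit were higher and 13.1% lower.

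**Figure D2:**
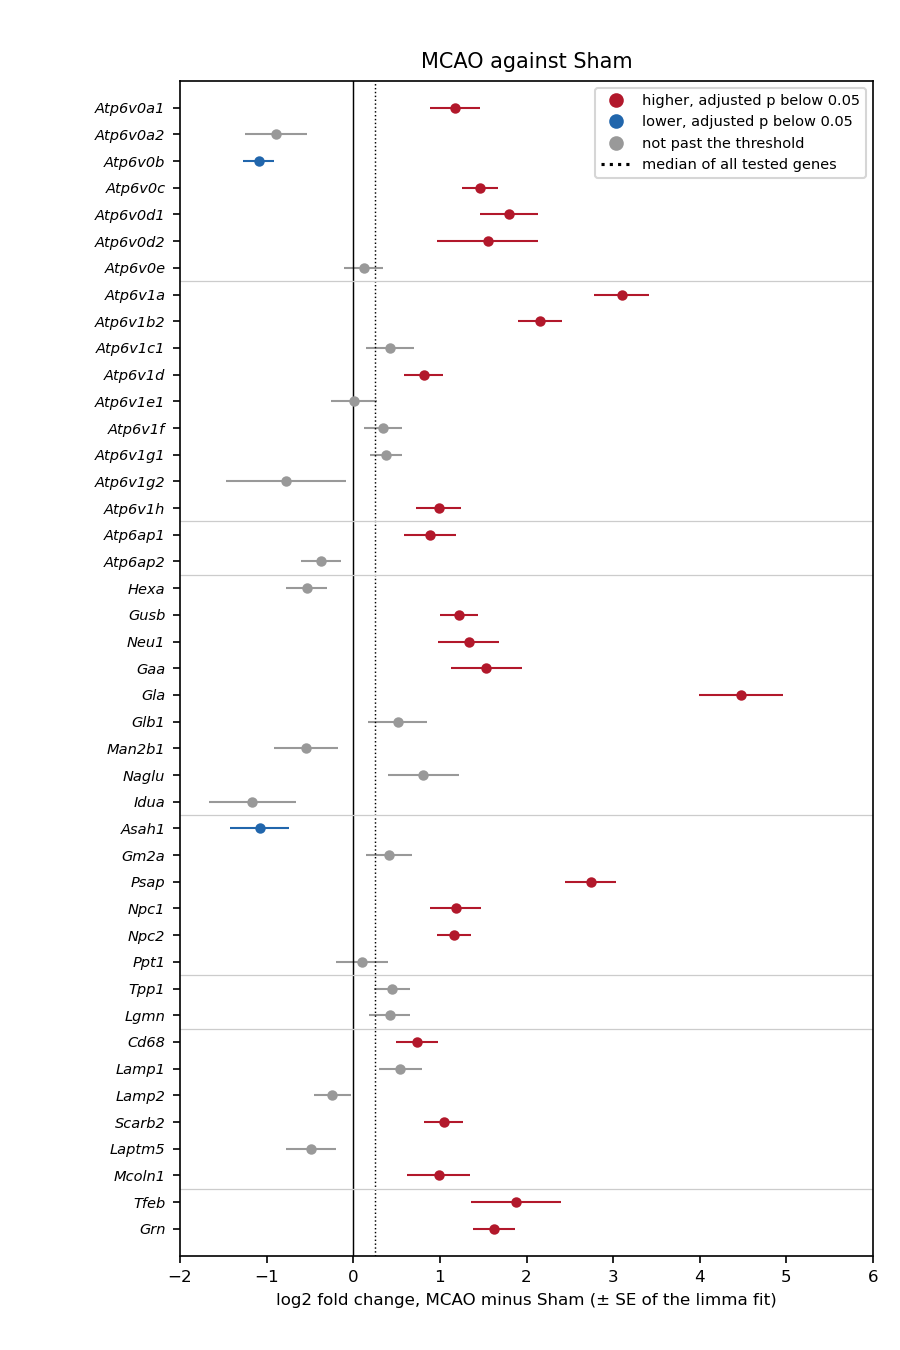
log2 fold change of MCAO against Sham for the 43 genes, ordered by role, with the standard error of the fit; red is higher, blue lower, grey not past the threshold, and the dotted line is the median of all tested genes (0.25). Rises run from 0.74 for Cd68 to 4.48 for Gla, and only Atp6v0b and Asah1 fell.

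Of the 7 V0 genes 4 rose, Atp6v0d2 among them, and 1 fell. Atp6v0c encodes the c subunit, the proteolipid that repeats around the proton-carrying ring, and has annotated pseudogene copies with which reads could be shared. Its FPKM was 541, 1228, 677 and 1039 in the 4 Sham libraries and 2232, 2284, 2361 and 2258 in the MCAO libraries. No Sham library reached the lowest MCAO library, and the rise was 1.46 ± 0.21 on the log2 scale (SE; adjusted p = 1.27e-05). Atp6v0b encodes the related c″ proteolipid of the same ring. It went the other way, from 775, 969.7, 850.1 and 826 FPKM in Sham to 466, 417, 356 and 366 FPKM in MCAO, again with no overlap (log2 fold change -1.09 ± 0.18, adjusted p = 8.66e-05). Atp6v0c thus took 13.2 to 24.6% of all pump FPKM in the Sham libraries and 33.8 to 41.1% in the 12 later ones.

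The a subunit of V0 holds the path by which protons cross the membrane, and its paralogues direct the pump to different compartments. Atp6v0a1 was at 14.4, 12.8, 21.0 and 24.8 FPKM in Sham and at 50.7, 27.2, 41.0 and 50.2 FPKM in MCAO, without overlap (log2 fold change 1.18 ± 0.29, adjusted p = 0.00325). Atp6v0a2, known from the Golgi and endosomes, was at 12.5, 29.0, 17.6 and 32.9 FPKM in Sham and at 11.1, 8.40, 18.6 and 8.50 FPKM in MCAO, with overlap (log2 fold change -0.90 ± 0.36, adjusted p = 0.0532). It passed as lower with quantile normalization (-1.19, adjusted p = 0.0105) and with length and GC trends removed (-0.99, adjusted p = 0.0332). The ratio of Atp6v0a1 to Atp6v0a2 FPKM was 0.440 to 1.20 in the Sham libraries and 1.74 to 7.05 in the 12 others. A further paralogue, Tcirg1, known from osteoclasts and lysosomes and not among the 43, was at 41.1 to 135 FPKM in Sham and 108 to 173 FPKM in MCAO (log2 fold change 0.91 ± 0.34, adjusted p = 0.0384), with overlap.

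The d subunit joins the central stalk to the ring. Atp6v0d1, its widespread form, was at 37.3, 64.4, 81.5 and 123 FPKM in Sham and at 226, 214, 318 and 242 FPKM in MCAO (log2 fold change 1.80 ± 0.34, adjusted p = 0.000305). All MCAO libraries lay above all Sham libraries. Its paralogue Atp6v0d2, known from osteoclasts and macrophages, was listed at 0 in 3 Sham libraries and at 0.03 FPKM in the other, and was at 0.88, 0, 4.18 and 6.78 FPKM in MCAO. Since it was kept only through 6 libraries with occlusion, its pass of the test (adjusted p = 0.0403) is no support for a rise. It lost the call under 10 of 18 alternatives, among them the fit without filter and the fits without any Sham library or without MCAO replicate 3 or 4. Atp6v0e did not pass (log2 fold change 0.12 ± 0.22, adjusted p = 0.695).

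Of the 9 V1 genes 4 rose and none fell. The A and B subunits form the ring that hydrolyses ATP. Atp6v1a, the A subunit, was at 29.7, 24.2, 12.2 and 19.3 FPKM in Sham and at 171, 175, 194 and 189 FPKM in MCAO, a rise of 3.10 ± 0.32 on the log2 scale (adjusted p = 2.09e-07). Atp6v1b2, the B subunit, was at 36.2, 25.8, 19.3 and 49.6 FPKM in Sham and at 124, 139, 165 and 137 FPKM in MCAO, a rise of 2.15 ± 0.25 (adjusted p = 1.35e-06). Neither pair of groups overlapped. The ratio of Atp6v1a to Atp6v1b2 FPKM was 0.389 to 0.938 in Sham and 1.18 to 1.38 in MCAO.

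Atp6v1d of the rotor stalk (0.81 ± 0.23, adjusted p = 0.00763) and Atp6v1h, a regulatory subunit (0.99 ± 0.26, adjusted p = 0.00492), also rose on the log2 scale without overlap. The 5 V1 genes that did not pass lay between log2 fold changes of -0.77 for Atp6v1g2 and 0.43 for Atp6v1c1, the C subunit of the peripheral stalks. Of these, Atp6v1e1 (0.01 ± 0.26), Atp6v1f (0.35 ± 0.22) and Atp6v1g1 (0.38 ± 0.19) were high in all groups, with means of 171 to 1225 FPKM. Their log2 fold changes under quantile normalization were -0.14, -0.21 and -0.03, also not past the threshold, while Atp6v1g1 passed as higher with length and GC trends removed (adjusted p = 0.0171).

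Both accessory genes are needed for assembly of the pump. Atp6ap1 was at 82.8, 195, 74.0 and 199 FPKM in Sham and at 287, 221, 235 and 193 FPKM in MCAO, a rise of 0.89 ± 0.30 on the log2 scale (adjusted p = 0.0240) with overlap, which was lost under 5 of 19 alternatives, including the fits without Sham replicate 1, Sham replicate 3 or MCAO replicate 1. Atp6ap2, also called the prorenin receptor, was at 306, 225, 297 and 186 FPKM in Sham and at 148, 191, 187 and 253 FPKM in MCAO, with overlap. Its log2 fold change was -0.38 ± 0.23 (adjusted p = 0.209), -0.58 with quantile normalization (adjusted p = 0.0414) and 0.39 with length and GC trends removed (adjusted p = 0.117), so that its direction depended on the scaling.

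Of the 9 glycosidase genes, whose enzymes remove sugars from glycoproteins, glycolipids, glycogen and proteoglycans, 4 rose and none fell. Gla encodes α-galactosidase A, which cleaves globotriaosylceramide. It was at 0, 0.61, 7.39 and 0.27 FPKM in Sham and at 51.8, 39.2, 29.7 and 63.7 FPKM in MCAO, the largest rise of the 43 (4.48 ± 0.49 on the log2 scale, adjusted p = 4.71e-07), and it stayed between 34.1 and 61.7 FPKM in the 8 exosome libraries. It was at 1 FPKM or more in 13 of 16 libraries, Sham replicate 3 being the only Sham library among them. Gla was thus kept through the libraries with occlusion, so its adjusted p adds no support beyond the values listed. Gusb (β-glucuronidase, 1.22 ± 0.22), Neu1 (the lysosomal sialidase, 1.33 ± 0.35) and Gaa (acid α-glucosidase, which degrades glycogen, 1.54 ± 0.41) rose on the log2 scale with adjusted p of 0.000194, 0.00512 and 0.00546. For Gaa and Neu1 the groups overlapped, in each case through the highest Sham library, replicate 4.

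The 5 glycosidase genes that did not pass went in both directions. Hexa, the α subunit of β-hexosaminidase, was at 293, 468, 387 and 655 FPKM in Sham and at 292, 281, 249 and 382 FPKM in MCAO (log2 fold change -0.54 ± 0.24, adjusted p = 0.0761). Idua, which acts on dermatan and heparan sulfate, had -1.16 ± 0.50 and Man2b1, the lysosomal α-mannosidase, -0.54 ± 0.37. Glb1, the lysosomal β-galactosidase, had 0.51 ± 0.34 and Naglu, a heparan sulfate enzyme, 0.81 ± 0.41. Hexa (-0.84, adjusted p = 0.00952) and Idua (-1.42, adjusted p = 0.0255) passed as lower under quantile normalization, and also with length and GC trends removed (adjusted p = 0.00819 and 0.0316).

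Of the 6 lipid genes 3 rose and 1 fell. Psap encodes the precursor of the saposins, which present sphingolipids to their hydrolases. It was at 82.9, 206, 171 and 255 FPKM in Sham and at 1167, 989.7, 1102 and 1189.6 FPKM in MCAO, a rise of 2.74 ± 0.29 on the log2 scale (adjusted p = 3.77e-07). Every MCAO library was above every Sham library. Asah1, acid ceramidase, which splits ceramide into sphingosine and a fatty acid, fell from 439.9, 365, 330.2 and 216 FPKM in Sham to 112, 191, 169 and 157 FPKM in MCAO, without overlap (log2 fold change -1.08 ± 0.34, adjusted p = 0.0170). That call was lost without Sham replicate 1 or without MCAO replicate 1, where the highest adjusted p was 0.0575. Npc1 (1.18 ± 0.30, adjusted p = 0.00352) and Npc2 (1.16 ± 0.20, adjusted p = 0.000104), the pair that moves cholesterol out of the lysosome, both rose on the log2 scale without overlap. Gm2a, an activator that lifts a ganglioside for hexosaminidase (0.41 ± 0.27), and Ppt1, which removes palmitate from proteins (0.10 ± 0.30), did not pass.

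Neither protease gene passed. Lgmn, the asparagine-specific endopeptidase that matures cathepsins, was at 1267, 2201, 1889 and 2313 FPKM in Sham and at 2398, 2653, 2690.2 and 2295 FPKM in MCAO, overlapping by 1 library (log2 fold change 0.42 ± 0.23, adjusted p = 0.163). Tpp1, a tripeptidyl peptidase, had a log2 fold change of 0.45 ± 0.21 (adjusted p = 0.0947).

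Of the 6 membrane protein genes 3 rose. Cd68, a heavily glycosylated protein used as a marker of phagocytes, was at 553, 1100.0, 718 and 728 FPKM in Sham and at 1287, 1380.4, 1474 and 943 FPKM in MCAO (log2 fold change 0.74 ± 0.24, adjusted p = 0.0210). MCAO replicate 4 was below Sham replicate 2, and the call was lost under 5 of 19 alternatives, among them quantile normalization (log2 fold change 0.21, adjusted p = 0.580) and the fits without Sham replicate 1 or MCAO replicate 2 or 3. Scarb2, the receptor that carries glucocerebrosidase to the lysosome, rose by 1.05 ± 0.23 on the log2 scale (adjusted p = 0.00107) without overlap. Mcoln1, a calcium channel of the lysosomal membrane, rose from 6.83, 6.71, 6.20 and 15.9 FPKM to 11.9, 25.8, 17.4 and 16.7 FPKM (log2 fold change 0.98 ± 0.36, adjusted p = 0.0380), with overlap through Sham replicate 4. The Mcoln1 call was lost under 11 of 19 alternatives, among them the fits without Sham replicate 1, 2 or 3 and without MCAO replicate 2, 3 or 4.

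The 2 main glycoproteins of the lysosomal membrane did not pass. Lamp1 was at 211, 230, 274 and 322 FPKM in Sham and at 427, 344, 340.3 and 389 FPKM in MCAO (log2 fold change 0.55 ± 0.25, adjusted p = 0.0911), with all MCAO libraries above Sham. Lamp2, which also serves as the receptor of chaperone-mediated autophagy, was at 471, 343, 386 and 254 FPKM in Sham and at 291, 257, 378 and 287 FPKM in MCAO (log2 fold change -0.24 ± 0.21, adjusted p = 0.391). With length and GC trends removed its sign turned (0.43, adjusted p = 0.0484). Laptm5, a lysosomal membrane protein of blood-lineage cells, was at 386, 962, 684 and 1267 FPKM in Sham and at 582, 393, 508 and 717 FPKM in MCAO, with overlap (log2 fold change -0.49 ± 0.28, adjusted p = 0.184). It passed as lower with quantile normalization (-0.95, adjusted p = 0.0113) and with length and GC trends removed (-0.65, adjusted p = 0.0433).

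Tfeb itself was a low transcript. It was at 1.39, 2.43, 2.70 and 6.23 FPKM in Sham and at 16.8, 9.69, 23.2 and 7.72 FPKM in MCAO, without overlap, and rose by 1.88 ± 0.52 on the log2 scale (adjusted p = 0.00718). Grn, the gene of progranulin, a secreted protein that also reaches the lysosome and is cut there into granulins, was at 244, 511, 479 and 683 FPKM in Sham and at 1448, 1248, 1592 and 1297 FPKM in MCAO (log2 fold change 1.63 ± 0.24, adjusted p = 2.12e-05). The lowest MCAO library of Grn was above the highest Sham library.

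**Figure D3:**
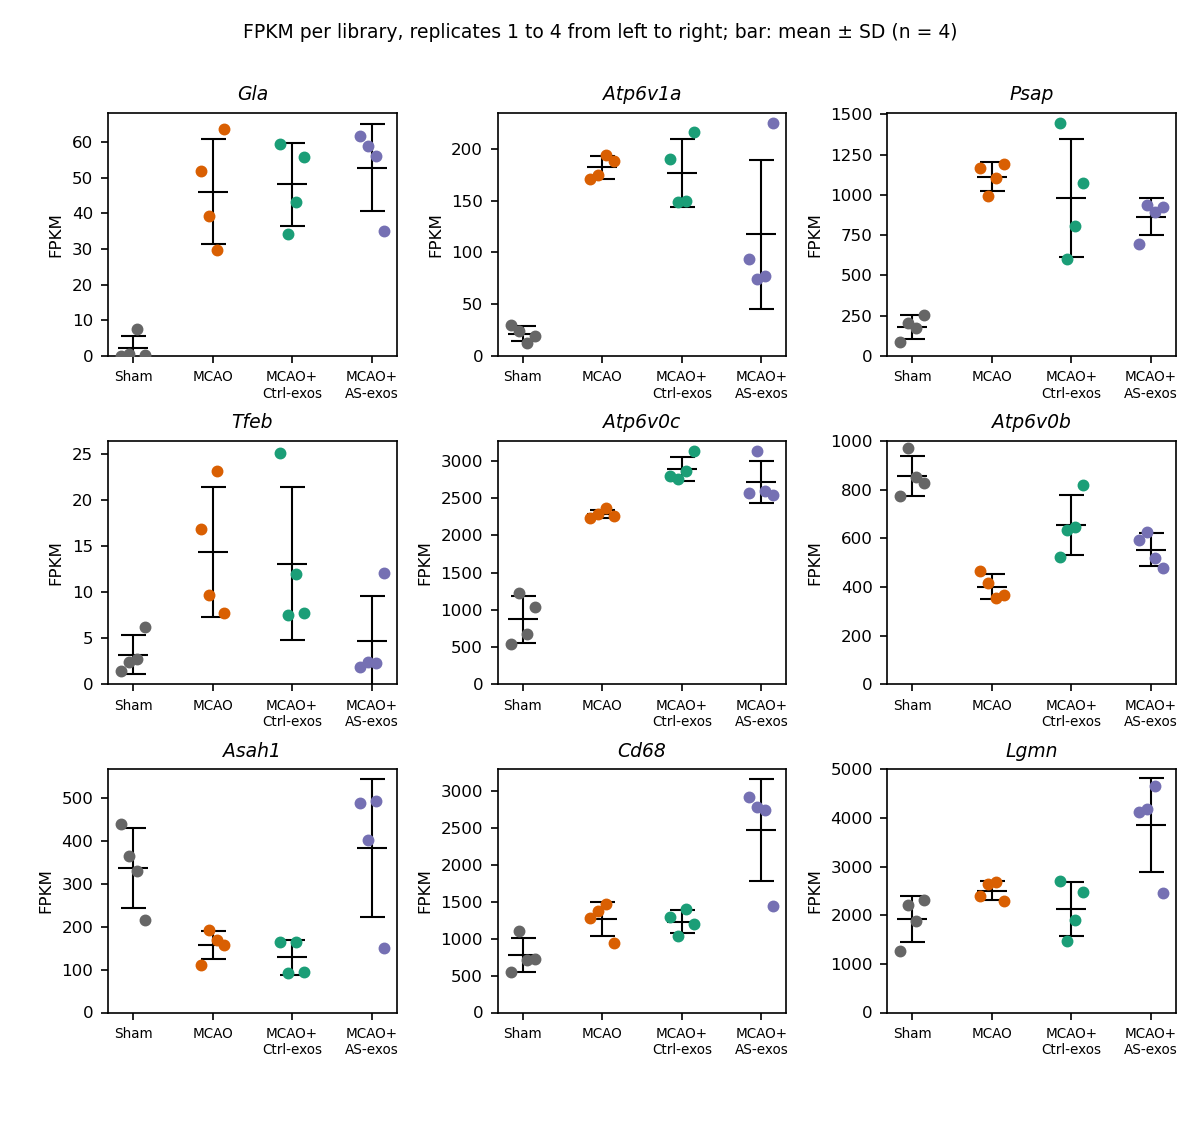
FPKM in every library for 9 genes, replicates 1 to 4 from left to right within a group, with mean and SD (n = 4). Gla, Atp6v1a, Psap and Atp6v0c are low in Sham and high in MCAO, Atp6v0b is reversed, and for Tfeb, Asah1, Cd68 and Lgmn the MCAO+AS-exos libraries 1 to 3 lie away from replicate 4.

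Over all tested genes 24.5% rose and 14.8% fell in MCAO against Sham, with a median log2 fold change of 0.25. A list of 70 other lysosomal genes, all of them tested, was also chosen with earlier results of these data known. In this list 29 genes rose and 11 fell, with a median of 0.61. Of these, Acp5, Plbd1, Igf2r and Tfec were under 1 FPKM in all Sham libraries and were kept only through libraries with occlusion, and of the other 66 genes 25 rose and 11 fell. By kind, 15 of 29 hydrolases rose and 6 fell, 4 of 18 membrane and transport genes rose and 4 fell, and 4 of 8 genes of the scaffold that holds mTORC1 at the lysosome rose. Acp5, the tartrate-resistant acid phosphatase, went from 0.08 to 0.26 FPKM in Sham to 78.8 to 104 FPKM in MCAO. Plbd1, a phospholipase B-like protein, went from 0 to 0.65 FPKM to 82.7 to 171 FPKM, and the tetraspanin gene Cd63 from 422 to 797 FPKM to 1955 to 2497 FPKM (adjusted p = 5.90e-07). Rnaset2b (-2.65 ± 0.31) and Rnaset2a (-2.47 ± 0.29), near-identical copies whose reads can be shared, fell on the log2 scale. Of the 3 relatives of Tfeb, Tfec was at 0.03 to 0.70 FPKM in Sham and at 7.78 to 19.2 FPKM in MCAO, while Tfe3 (0.37 ± 0.34) and Mitf (0.61 ± 0.35) did not pass.

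MCAO+Ctrl-exos against MCAO asks what exosomes named as the control added to occlusion. None of the 43 genes passed in either direction, where 0.0738% of all tested genes (8 genes) passed, 0.0461% higher and 0.0277% lower. An unadjusted p under 0.05 was found for 5 members and for 1181 of the 10846 tested genes. For the members the median difference was 0.08 on the log2 scale, and for all tested genes it was -0.14. Values did not overlap for 6 of the 43, against 5.98% of all tested genes. The smallest p belonged to Hexa, at 465, 685, 706 and 699 FPKM with Ctrl-exos against 249 to 382 FPKM in MCAO (log2 fold change 1.08 ± 0.24, adjusted p = 0.109). Without MCAO+Ctrl-exos replicate 1, the lowest library of Hexa in its group, 2 members passed as higher, where 71 of all tested genes did (0.655%).

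The next smallest were Atp6v0b, Lamp1 and Laptm5, none of them overlapping. Atp6v0b was at 521, 634, 647 and 821 FPKM with Ctrl-exos (0.70 ± 0.18 against MCAO on the log2 scale, adjusted p = 0.174). Lamp1 was at 469, 792, 744 and 568 FPKM (0.75 ± 0.25, adjusted p = 0.285) and Laptm5 at 779, 952, 743 and 1034 FPKM (0.69 ± 0.28, adjusted p = 0.376). Gla, Atp6v1a and Psap, with the largest rises after occlusion, were near their MCAO levels. Their differences from MCAO were 0.09 ± 0.49, -0.06 ± 0.32 and -0.26 ± 0.29, errors that leave room for changes of either sign. Atp6v1b2, with the next largest rise, was lower with Ctrl-exos than in MCAO, without overlap, and did not pass (-0.33 ± 0.25, adjusted p = 0.653).

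Others named by role showed the same lack of a call. Atp6v0c was at 2764 to 3131 FPKM, above the 4 MCAO libraries (0.34 ± 0.21), but had -0.09 with quantile normalization. Atp6v0d1 was at 251 to 341 FPKM (0.24 ± 0.34), Atp6v0d2 at 1.87, 0, 5.18 and 0.56 FPKM, Atp6v0a1 at 28.8 to 44.8 FPKM (-0.19 ± 0.29) and Atp6v0a2 at 6.17 to 11.1 FPKM (-0.49 ± 0.36). Atp6ap1 (-0.03 ± 0.30), Atp6ap2 (-0.15 ± 0.23), Cd68 (-0.03 ± 0.24), Lamp2 (-0.13 ± 0.21), Tfeb (-0.17 ± 0.52) and Grn (-0.09 ± 0.24) had log2 differences smaller than their errors. Of the 70 other lysosomal genes none passed, and 9 had an unadjusted p under 0.05, as did 1181 of all 10846 tested genes.

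MCAO+AS-exos was compared with the same 4 MCAO libraries, and with MCAO+Ctrl-exos below, so these comparisons share samples. MCAO+AS-exos replicate 4 stood apart from the other 3 libraries of its group. Across the 10846 tested genes its Pearson r with them was 0.905 to 0.921, theirs with each other 0.979 to 0.985, and its r with the MCAO libraries 0.915 to 0.937. For 35 of the 43 members it lay outside the range of replicates 1 to 3, as it did for 79.9% of all tested genes. It lay inside the range of the MCAO and MCAO+Ctrl-exos libraries for 35 of the 43 members and 85.6% of all tested genes. No value in the files checks the label of this library, which is in doubt and is used here as given. Monocyte markers summed to 23305, 21223 and 22608 FPKM in replicates 1 to 3 and to 9657 FPKM in replicate 4, and neutrophil markers to 7060.1, 6315, 7873 and 3495 FPKM. Lyz2 was the largest part of these monocyte sums, at 4693 to 20052 FPKM in this group, where S100a4 was at 2209 to 3701 FPKM. The sums therefore do not give the direction of the other monocyte markers. Ptprc and Itgam, which encode the antigens used for sorting, summed to 117, 102 and 124 FPKM in replicates 1 to 3 and to 263 FPKM in replicate 4. The part of these differences in the results was not tested, and the counts of called genes below are given with and without replicate 4, a choice made after seeing the data.

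Against MCAO, 2 of the 43 genes rose and none fell, while 6.14% of all tested genes passed, 1.06% higher and 5.08% lower. On the log2 scale the members had a median of 0.22 and all tested genes a median of -0.17, and 31 of 43 values were above 0. Groups did not overlap for 4 of the 43 genes (Atp6v0b, Atp6v0c, Hexa and Psap), against 14.4% of all tested genes. Cd68 was at 2919, 2791, 2754 and 1441 FPKM with AS-exos, against 943 to 1474 FPKM in MCAO (log2 fold change 0.93 ± 0.24, adjusted p = 0.0367). Replicates 1 to 3 were above every MCAO library and replicate 4 was within their range. Asah1, which had fallen after occlusion, was at 488, 403, 493 and 149.7 FPKM, against 112 to 191 FPKM in MCAO (log2 fold change 1.17 ± 0.34, adjusted p = 0.0487). Again replicate 4 alone lay within the MCAO range. With any 1 of the MCAO libraries or of AS-exos replicates 1 to 3 left out, none of the 43 genes passed as higher. In those 7 fits the calls over all tested genes also dropped, from 115 to at most 41 higher. Cd68 kept log2 fold changes of 0.79 to 1.01 (adjusted p from 0.0549 to 0.147) and Asah1 of 0.997 to 1.27 (adjusted p from 0.0692 to 0.182).

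Without AS-exos replicate 4, 9 of the 43 genes passed as higher and 2 as lower, while 18.7% of all tested genes passed, 3.89% higher and 14.8% lower. Cd68 then had a log2 fold change of 1.17 (adjusted p = 0.00147) and Asah1 of 1.57 (adjusted p = 0.00129). The 7 others higher were Man2b1 (1.24), Ppt1 (1.01), Gm2a (0.90), Atp6v1e1 (0.84), Hexa (0.81), Lgmn (0.79) and Atp6v0b (0.53), with adjusted p from 0.00884 to 0.0485. Tfeb (-2.15, adjusted p = 0.00542) and Atp6v1a (-1.15, adjusted p = 0.00620) were the 2 lower.

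Tfeb was at 1.83, 2.43, 2.34 and 12.1 FPKM with AS-exos, against 7.72 to 23.2 FPKM in MCAO and 1.39 to 6.23 FPKM in Sham. With all 4 libraries its difference from MCAO did not pass (log2 fold change -1.64 ± 0.52, adjusted p = 0.0611). Replicates 1 to 3 lay below every MCAO library and within the Sham range, and replicate 4 lay within the MCAO range. Atp6v1a behaved alike in its order, at 93.7, 74.1, 77.2 and 225 FPKM against 171 to 194 FPKM in MCAO (-0.79 ± 0.32, adjusted p = 0.127), although all 4 libraries were above Sham. Its partner in the catalytic ring, Atp6v1b2, was at 176, 160.4, 184 and 119 FPKM (0.17 ± 0.25 against MCAO, adjusted p = 0.727). The ratio of Atp6v1a to Atp6v1b2 was therefore 0.532, 0.462 and 0.419 in replicates 1 to 3 and 1.88 in replicate 4, against 1.18 to 1.38 in MCAO, 1.32 to 1.94 with Ctrl-exos and 0.389 to 0.938 in Sham.

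Several enzyme genes had the same layout of libraries without passing when all 4 were used. Lgmn was at 4122, 4188, 4668 and 2456 FPKM with AS-exos, against 2295 to 2690.2 FPKM in MCAO (0.58 ± 0.23, adjusted p = 0.126). Man2b1 was at 76.5, 82.2, 128 and 42.8 FPKM against 20.8 to 55.5 FPKM (0.96 ± 0.37, adjusted p = 0.115). Ppt1 was at 241, 239.8, 285 and 121 FPKM against 76.5 to 166 FPKM (0.75 ± 0.30, adjusted p = 0.123), and Gm2a at 167, 187, 200.1 and 91.8 FPKM against 83.8 to 124 FPKM (0.65 ± 0.27, adjusted p = 0.134). In each of these 4 genes replicates 1 to 3 exceeded all MCAO libraries and replicate 4 did not. Glb1 differed in layout, since at 32.7, 36.4, 37.4 and 53.9 FPKM its replicate 4 was the highest of the group (0.93 ± 0.34, adjusted p = 0.0970).

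The remaining genes named by role did not pass against MCAO. Atp6v0d1 was at 172, 133, 117 and 366 FPKM (-0.48 ± 0.34 on the log2 scale, and -0.82 without replicate 4, adjusted p = 0.0666). Atp6v0d2 was at 1.06, 0.67, 0 and 1.15 FPKM, Atp6v0a1 at 24.3 to 35.01 FPKM (-0.46 ± 0.29) and Atp6v0a2 at 8.13 to 13.9 FPKM (-0.18 ± 0.36). Atp6ap1 (0.49 ± 0.30) and Atp6ap2 (0.44 ± 0.23) had adjusted p of 0.317 and 0.236. Lamp1 (-0.09 ± 0.25), Lamp2 (0.16 ± 0.21), Laptm5 (0.42 ± 0.28) and Grn (0.01 ± 0.24) had adjusted p of 0.361 or more. Of the 70 other lysosomal genes Acp5 rose (0.93 ± 0.23, adjusted p = 0.0330), and Galc, which degrades galactosylceramide (-1.23 ± 0.34, adjusted p = 0.0403), and Rragc, a GTPase of the mTORC1 scaffold (-1.08 ± 0.31, adjusted p = 0.0476), fell. Without replicate 4, 6 of the 70 passed as higher and 7 as lower, where 3.89% of all tested genes were higher and 14.8% lower.

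**Figure D4:**
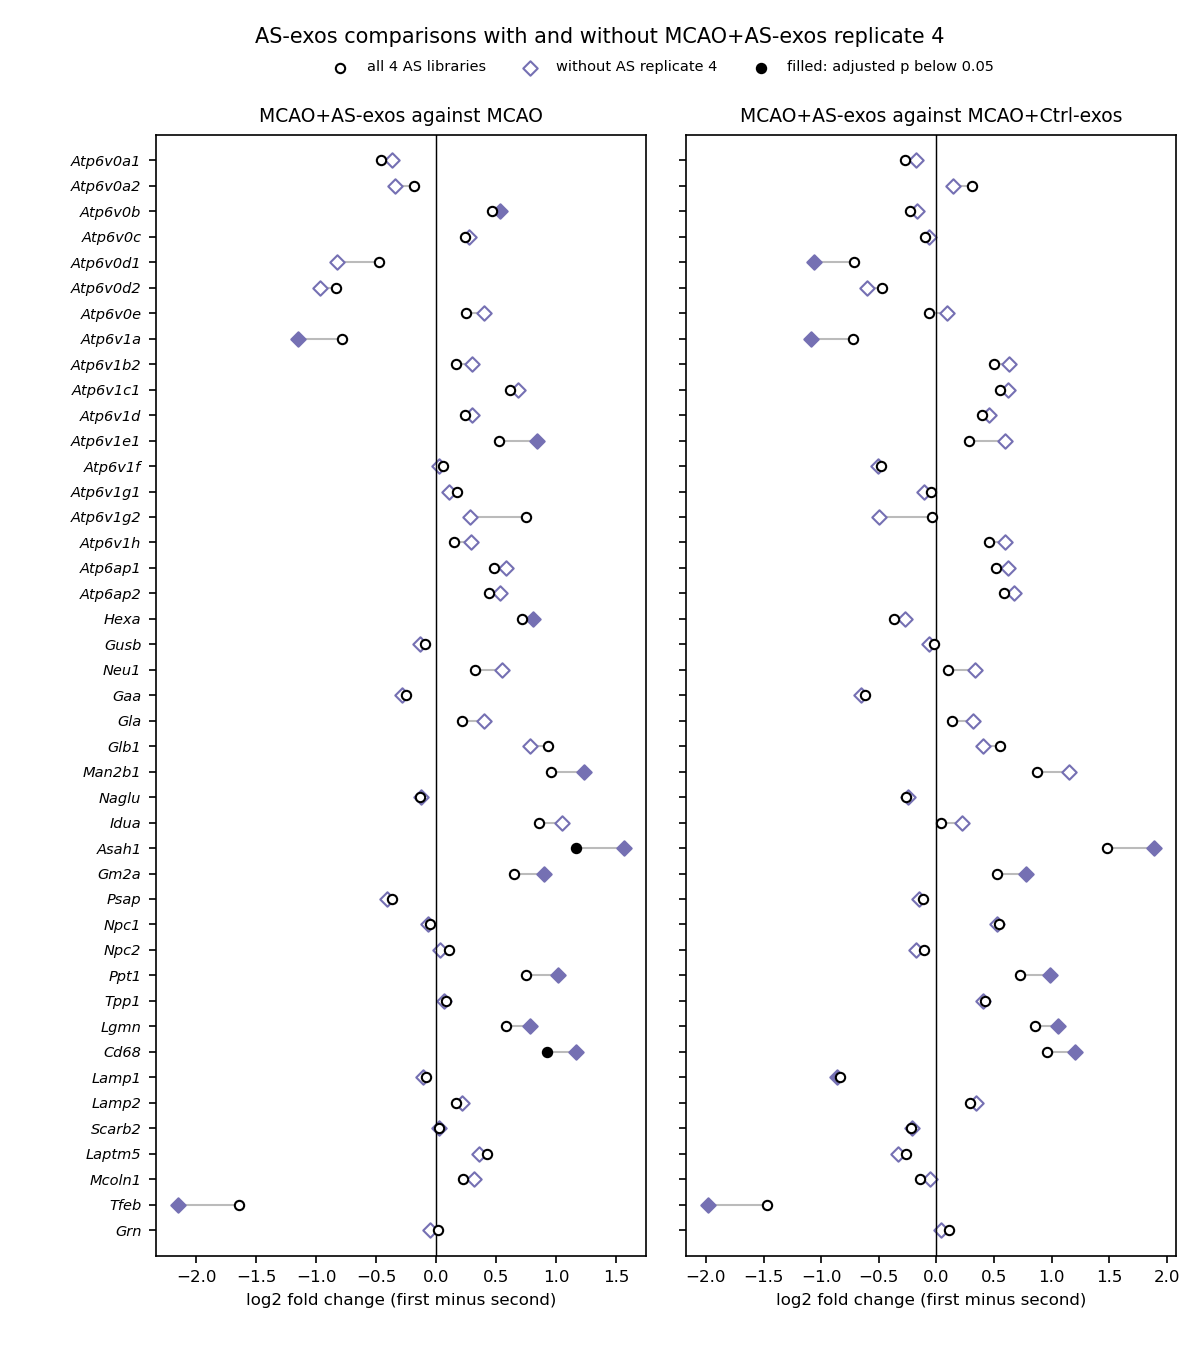
log2 fold changes of MCAO+AS-exos against MCAO (left) and against MCAO+Ctrl-exos (right) for the 43 genes, with all 4 AS-exos libraries (circles) and without replicate 4 (diamonds); filled symbols passed an adjusted p of 0.05. Asah1, Cd68, Lgmn and Ppt1 move to larger positive values without replicate 4, and Tfeb, Atp6v1a and Atp6v0d1 to larger negative ones.

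MCAO+AS-exos against MCAO+Ctrl-exos sets the 2 kinds of exosome against each other. None of the 43 genes passed in either direction, where 0.286% of all tested genes passed (0.157% higher, 0.129% lower). An unadjusted p under 0.05 was found for 11 members and for 2127 of the 10846 tested genes. Medians on the log2 scale were 0.04 for the members and -0.08 for all tested genes. Values did not overlap for 4 of the 43 (Atp6v1b2, Atp6v1c1 and Cd68 higher with AS-exos, Gaa lower), against 10.2% of all tested genes. The smallest p belonged to Asah1, at 164, 93.3, 164 and 93.5 FPKM with Ctrl-exos (log2 fold change 1.48 ± 0.34, adjusted p = 0.0509). AS-exos replicate 4, at 149.7 FPKM, lay among these values and the other 3 above them.

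Cd68 was at 1291, 1032, 1404 and 1207 FPKM with Ctrl-exos, all below the 4 AS-exos libraries (0.96 ± 0.24, adjusted p = 0.0672). Lgmn was at 2705, 1476, 1896 and 2469 FPKM (0.85 ± 0.23, adjusted p = 0.0759), overlapping only with AS-exos replicate 4. Lamp1, the fourth, was lower with AS-exos, at 377, 520.5, 210.3 and 371 FPKM (-0.84 ± 0.25, adjusted p = 0.0881), with overlap through AS-exos replicate 2. Tfeb was at 25.2, 7.48, 12.0 and 7.71 FPKM with Ctrl-exos (-1.47 ± 0.52, adjusted p = 0.128).

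Without AS-exos replicate 4, 5 of the 43 passed as higher and 4 as lower, while 12.0% of all tested genes passed, 3.52% higher and 8.44% lower. The 5 were Asah1 (1.88, adjusted p = 0.000649), Cd68 (1.20, adjusted p = 0.00201), Lgmn (1.05), Ppt1 (0.99) and Gm2a (0.77). The 4 were Tfeb (-1.98, adjusted p = 0.0120), Atp6v1a (-1.09, adjusted p = 0.0118), Atp6v0d1 (-1.06, adjusted p = 0.0304) and Lamp1 (-0.86, adjusted p = 0.0460). With all 4 libraries Atp6v0d1 had -0.71 ± 0.34, Atp6v0d2 was listed at 0 in 1 library of each group, and Atp6v0a1 (-0.27 ± 0.29), Atp6v0a2 (0.31 ± 0.36), Atp6ap1 (0.52 ± 0.30), Atp6ap2 (0.59 ± 0.23), Lamp2 (0.29 ± 0.21), Laptm5 (-0.27 ± 0.28) and Grn (0.11 ± 0.24) did not pass. None of the 70 other lysosomal genes passed with all libraries, and 14 had an unadjusted p under 0.05, as did 2127 of all 10846 tested genes.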

How the data were processed

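RNA of sorted cells was amplified as cDNA and sequenced from transposon-based libraries, per the labels' protocols. HISAT2, Bowtie2, RSEM 1.3.1 and build GRCm39.p6 are named in the submitters' processing notes, without roles. The deposited values were taken as FPKM, which rests on the naming of RSEM and on totals that differ between libraries; TPM of part of the genes is possible. They are scaled by transcript length and library, hold no counts, and matched between the table and the 16 single files.

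Values were analysed as log2(FPKM + 1), so fold changes of low genes are understated. The 10846 genes at 1 FPKM or more in at least 4 libraries were fitted in 1 model of 4 group means with limma 3.58.1 in R 4.3.3 (eBayes with trend and robust; two-sided; Benjamini-Hochberg adjustment over all tested genes, threshold 0.05). The fit was tested on simulated data. Errors of FPKM are SD of 4 libraries, and errors of log2 fold changes are SE of the fit. Named in full were, per comparison, up to 8 members per direction with the largest change and no overlap, the 4 with the smallest p where none passed, and genes set by role (Atp6v0d1, Atp6v0d2, the V0 a subunits, Atp6ap1, Atp6ap2, Cd68, Lamp1, Lamp2, Tfeb, Grn and Laptm5); other members named with values were chosen after these were seen. The members and lists were chosen with earlier results of these data known. Groups came from the titles. Alternatives were other scalings, filters, pseudocounts, weights, the replicate number as a block and leaving out each library; removal of transcript length and GC trends (GENCODE M21 transcripts) was added after seeing the data. The planned correlation of other genes with Cd68 and Atp6v0d2 over libraries is not given, because the Sham libraries form a separate cluster. A result that the naming rule gave for the list of other lysosomal genes is not reported here.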

Additional observations from a re-analysis of the deposited data

Results flagged for a closer look

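Within each group of 4 libraries, the highest or lowest value was compared with the rest, and it was set aside as far from the others in 12 of 172 combinations of gene and group, or 6.98%, where chance gives about 1 in 20. MCAO+AS-exos replicate 4 accounted for 5 of them. It was high for Atp6v1a (224.68 FPKM), Atp6v0a2 (13.94 FPKM) and Tfeb (12.1 FPKM), and low for Atp6v1e1 (128.27 FPKM) and Cd68 (1440.9 FPKM). In the same group replicate 2 was high for Atp6v0c (3140.6 FPKM). In MCAO+Ctrl-exos, replicate 1 was low for Hexa (465.06 FPKM) and high for Naglu (57.56 FPKM), and replicate 4 was low for Idua (7.56 FPKM). In Sham, replicate 3 was high for Gla (7.39 FPKM), and replicate 4 was high for Mcoln1 (15.94 FPKM) and for Atp6v0d2 (0.03 FPKM), the last being a value near 0 beside 3 values of 0.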

How the results depend on the processing

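Of the 23 members called between MCAO and Sham, 18 kept their call in every alternative fit, and Asah1, Atp6ap1, Atp6v0d2, Cd68 and Mcoln1 did not. A fold change of at least 2 was required only in the counts of members, where it left 16 higher and 2 lower. The share of all tested genes under that limit was not computed. The count of members lower in MCAO was 7 with quantile normalization, 4 with library quality weights and 6 with length and GC trends removed. It was 2 to 5 with each library left out (5 without Sham replicate 1). Of all genes in the same fits, 20% were lower with quantile normalization and 13.5% with quality weights. With length and GC trends removed 13.1% were lower, and without Sham replicate 1 13.8%. The median of the members was 0.37 with quantile normalization. Lamp2 reversed to 0.43 with length and GC trends removed. For MCAO+Ctrl-exos against MCAO, members higher numbered 1 with quality weights, 3 with MCAO+AS-exos replicate 4 and MCAO+Ctrl-exos replicate 1 both left out, and 0 to 2 with each library left out; the median was -0.12 with totals scaled to be equal. For MCAO+AS-exos against MCAO, members higher numbered 0 with a constant prior variance, with quantile normalization, in a fit of the 8 libraries compared and with length and GC trends removed. They numbered 1 with totals scaled, without filter, with a pseudocount of 0.1 and with a fold change of at least 2 required, 12 with quality weights, 9 with both libraries left out and 0 to 9 with each left out; members lower numbered 1 with totals scaled, 3 with quality weights, 2 with both left out and 0 to 2. For MCAO+AS-exos against MCAO+Ctrl-exos, members higher numbered 1 with a minimum of 5 FPKM, 12 with quality weights, 4 with both left out and 0 to 5 with each left out (1 without MCAO+Ctrl-exos replicate 1, 5 without MCAO+AS-exos replicate 4), and members lower 5, 4 and 0 to 4. Calls over all tested genes moved too: with quality weights 1138 were higher and 2817 lower against MCAO (115 and 551 without), 1226 and 2040 against MCAO+Ctrl-exos (17 and 14 without), and 48 were higher with Ctrl-exos against MCAO (5 without). With both libraries left out, 1.06% of all tested genes were higher with Ctrl-exos against MCAO. With AS-exos 4.28% were then higher and 15.6% lower against MCAO, and 3.28% and 6.75% against MCAO+Ctrl-exos. For AS-exos against MCAO, 0.673% were higher and 7.66% lower with totals scaled. Without filter 0.816% were higher there, and 0.802% with the pseudocount of 0.1. For AS-exos against MCAO+Ctrl-exos, 0.444% were higher with the minimum of 5 FPKM. The minimum of 5 FPKM left 41 of 43 members. Where not stated, the cause of a move was not tested. Unknown depth and 4 libraries per group limit what could be detected.

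Samples with the same replicate number did not deviate together across the tested genes (r of their residuals between -0.148 and 0.0923). The labels state no pairing, and these r over all genes cannot decide whether part of the genes deviated together. With the replicate number as a block, members higher in MCAO+AS-exos against MCAO+Ctrl-exos numbered 1, where 0.221% of all tested genes were higher. With length and GC trends removed and the block, that count was 1, where 0.217% of all genes in that fit were higher. Members lower in MCAO against Sham then numbered 6, where 12.8% of all genes in that fit were lower. Lamp2 in MCAO against Sham had 0.43 (adjusted p = 0.0388).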
